A study of Schizosaccharomyces pombe with 28 samples.

Results

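Hybridisations 9 to 18 are 10 of 28 two-channel microarrays of the fission yeast Schizosaccharomyces pombe. Every array compared independent cultures of 1 wild-type strain, LJY1014 (h- leu1-32), harvested in early-log growth in YES, a rich medium. Both channels of an array therefore carried cDNA from the same strain in the same condition, but from independent cultures. The labels put all 28 arrays in a single group with no treatment, mutant or time course, and h- marks the M mating type while leu1-32 is a leucine auxotrophy. The 10 arrays were chosen by the correlation of their measured log2 ratios, so their values are given below as a description. A gene was taken as a member when both of its probes lay on the same side of 0 in all 10 arrays, after each array had been centred on its median log2 ratio. This gave 642 of 4929 measured genes, or 13.0% of them, 304 above 0 and 338 below 0.

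Each value is the log2 ratio of the 2 channels, averaged over the 2 probes of a gene. A value of 1 is a 2-fold difference between the channels, and a ratio holds no expression level. Which channel was the numerator and whether dyes were swapped is not given in the sources used here. A difference between the cultures and one between the dyes therefore cannot be told apart. The signs are those of the deposited values, and "above 0" names no culture. In these bulk samples, fewer cells of a kind and less RNA per cell cannot be told apart.

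Fission yeast takes up iron by a reductive route, in which a ferric reductase at the cell surface hands iron to a ferroxidase and permease pair, and by importing iron-binding molecules called siderophores. The GATA-type repressor Fep1 shuts these uptake genes off when iron is plentiful, while Php4 acts when iron is scarce and represses genes whose products use or store iron. Ribosome assembly factors and ribosomal proteins are among the most coordinately expressed genes of growing yeast, and the Sty1 kinase pathway with its transcription factor Atf1 governs the general stress response.

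The 10 arrays resembled one another to different degrees. Pearson's r across the 4929 genes ran from 0.43 to 0.90 over the 45 pairs of the 10 arrays, with a median of 0.74. Against the other 18 arrays the 180 pairs ran from -0.20 to 0.58 with a median of 0.13. Array 18 stood apart inside the 10 arrays, with a median r of 0.52 to its fellows, and array 15 followed at 0.63. The nearest array outside was array 20, with a median r of 0.42. In array 18 alone, 154 genes lay more than 0.2 above all the other 9 arrays and 109 genes lay more than 0.2 below them. No other array of the 10 passed 8 genes above and 53 below by that measure. Results are therefore given with and without array 18 where it matters. The correlation between the 2 probes of a gene, taken over genes within an array, ran from 0.48 in array 18 to 0.77 in array 9. The deposited array medians lay between -0.02 and 0.01.

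**Figure D1:**
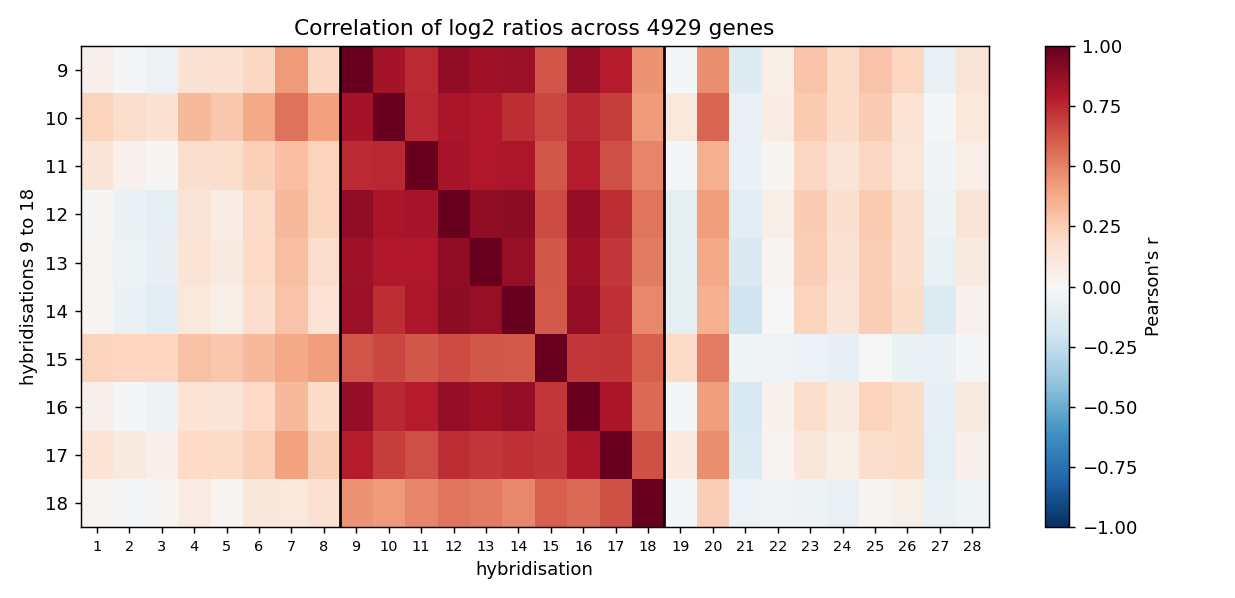
Pearson's r of log2 ratios across 4929 genes between each of hybridisations 9 to 18 (vertical axis) and all 28 hybridisations (horizontal axis), with colour giving r from -1 to 1 and black lines bounding the 10 arrays. Within the block of 9 to 18, rows 15 and 18 hold the lowest median r (0.63 and 0.52), and outside it column 20 holds the highest (0.42).

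The other 18 arrays fell into 2 sets by number, described in earlier work on these data and not named by the labels. Hybridisations 1 to 8, 19 and 20 correlated with each other at 0.46 to 0.87. Hybridisations 21 to 28 did so at 0.01 to 0.71, and the sets correlated with each other at -0.20 to 0.13. These 18 arrays did not enter the choice of members. Per the labels the cultures were independent, and the number of arrays limits the precision. Arrays of a set correlated with each other, so n below counts arrays. Whether the arrays of a set are independent of one another was not tested.

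Most member genes departed from 0 by little. The 304 genes above 0, which are 6.17% of all genes, had a median mean of 0.37 with quartiles of 0.27 and 0.44. The shares of all genes on each side are the background for every list count below. Of these 304, 211 reached a mean of at least 0.3, 44 at least 0.5 and 3 at least 1. The 338 genes below 0, which are 6.86% of all genes, had a median mean of -0.28 with quartiles of -0.37 and -0.21. Among them, 140 lay at least 0.3 below 0, 36 at least 0.5 and 6 at least 1. The platform annotation and RefSeq named 299 of the genes above and 329 of the genes below. Without array 18 the same rule gave 431 of 4929 genes above and 448 below, including by construction all of the 642. These larger shares are the background for list counts given without array 18.

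The edge of the rule is thin. Just inside it, llp1, tpt1 and fmp40 each had a probe as close to 0 as 0.0014 in 1 array, with means of 0.43, 0.34 and 0.18. Just outside it, tup12, rdh54 and cdr2 each had a probe at 0 in 1 array, with means of -0.16, -0.21 and -0.18.

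**Figure D2:**
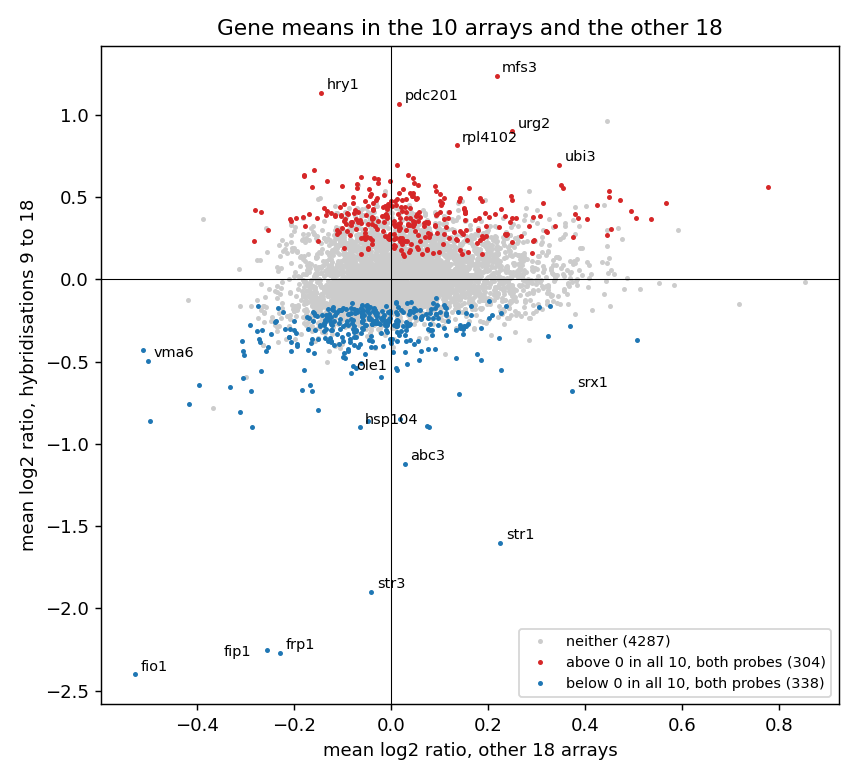
Mean log2 ratio of each gene in hybridisations 9 to 18 (vertical axis) against its mean in the other 18 arrays (horizontal axis), 1 point per gene, with members above 0 in red, members below 0 in blue and all other genes in grey. The iron uptake genes fio1, frp1, fip1, str3 and str1 lie farthest down, and mfs3, hry1 and pdc201 are the 3 members above 1.

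Genes of iron uptake lay farthest below 0 in the 10 arrays. Of the 4 genes of the reductive route, fio1, frp1 and fip1 were members and frp2 was not. The median of this list was -2.26, beside -0.01 over all genes.

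The multicopper ferroxidase gene fio1 ran from -2.56 to -2.19 with a median of -2.41. Its mean was -2.40 ± 0.12 (SD, n = 10), a 5.28-fold ratio between channels. Its 2 probes averaged -2.42 and -2.38. In hybridisations 1 to 8, 19 and 20 fio1 lay between -1.64 and -1.41, and in 21 to 28 between 0.49 and 0.83, so the 10 arrays did not overlap either set.

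The iron permease gene fip1, next to fio1 by systematic name (SPAC1F7.07C and SPAC1F7.08), ran from -2.50 to -2.08 with a median of -2.26. Its mean was -2.25 ± 0.12 (SD, n = 10), a 4.77-fold ratio. Here too the 10 arrays lay below both other sets, which ran from -1.27 to -0.87 and from 0.50 to 1.12. The ferric-chelate reductase gene frp1 ran from -2.49 to -2.09 with a median of -2.28 and a mean of -2.27 ± 0.13 (SD, n = 10), a 4.82-fold ratio. In the other sets frp1 ran from -1.15 to -0.51 and from 0.27 to 0.84, again without overlap.

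The reductase gene frp2 had a mean of -0.24 ± 0.11 (SD, n = 10). Its 2 probes gave -0.70 and 0.22, on opposite sides of 0. The probe F test sets the variation among the 10 arrays against the disagreement of a gene's 2 probes. It found no variation past the threshold in any of the 4 genes (adjusted p 0.203 for fio1, 0.741 for frp1, 0.742 for fip1 and 0.341 for frp2). These results cannot show that the 4 genes were steady, since the same values chose the arrays and the test misses small variation. In simulations it detected 8% of cases when arrays differed by as much as probes did, and 65% at 2 times that spread. For fio1 the SD was 0.12 over the arrays and 0.12 for the probe disagreement.

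Of the 7 genes for siderophores, haem and vacuolar iron, 4 were members, all below 0, and the list median was -0.48. Without array 18, 6 of the 7 were below 0 in every array by both probes. The siderophore transporter gene str3 ran from -2.16 to -1.75 with a median of -1.85 and a mean of -1.90 ± 0.15 (SD, n = 10). Its 2 probes disagreed in size, at -1.18 and -2.62. The ferrichrome transporter gene str1 ran from -1.90 to -1.35 with a median of -1.65 and a mean of -1.60 ± 0.17 (SD, n = 10), a 3.04-fold ratio. Both transporters lay lower in all 10 arrays than in any of the other 18, where the lowest values were -1.03 for str3 and -0.27 for str1.

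The ABC transporter gene abc3, whose product sits in the vacuolar membrane, ran from -1.42 to -0.73 with a median of -1.14 and a mean of -1.12 ± 0.20 (SD, n = 10). Its highest value came from array 18. The ferrichrome synthetase gene sib1 ran from -0.78 to -0.33 with a median of -0.44 and a mean of -0.48 ± 0.12 (SD, n = 10), its lowest value in array 11. The gene of the other enzyme of that pathway, sib2, had a mean of -0.41 ± 0.19 (SD, n = 10) and missed the rule; in array 18 it stood at -0.02. The siderophore transporter gene str2 averaged -0.31 ± 0.12 and the haem uptake gene shu1 -0.10 ± 0.11 (both SD, n = 10), and neither was a member. The probes of shu1 gave -0.22 and 0.02.

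Among 13 regulators and users of iron, 3 were members above 0 and 2 below, and the list median was 0.10. The members pointed in opposite directions. The iron-sulphur scaffold gene isu1 ran from -0.89 to -0.54 with a median of -0.69, and php4 ran from -0.68 to -0.33 with a median of -0.58. All 10 arrays lay below all of the other 18 for both genes, whose values there started at -0.14 for isu1 and -0.25 for php4.

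On the other side, the vacuolar iron storage transporter gene pcl1 ran from 0.40 to 0.84 with a median of 0.61. The aconitase gene aco1 ran from 0.17 to 0.66 with a median of 0.37, and sdh2, the iron-sulphur subunit of succinate dehydrogenase, from 0.22 to 0.46 with a median of 0.36. For these 3 genes the 10 arrays overlapped the other 18, where pcl1 reached 0.64, aco1 0.29 and sdh2 0.27. The repressor gene fep1, named here outside the rule for naming genes, averaged -0.11 ± 0.11 (SD, n = 10) and was not a member.

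Outside these lists, mmt1 was the next gene by size below abc3. The product of its S. cerevisiae namesake is a mitochondrial iron transporter. In the 10 arrays mmt1 ran from -1.04 to -0.73 with a median of -0.94, entirely below the other 18, where the lowest value was -0.22.

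**Figure D3:**
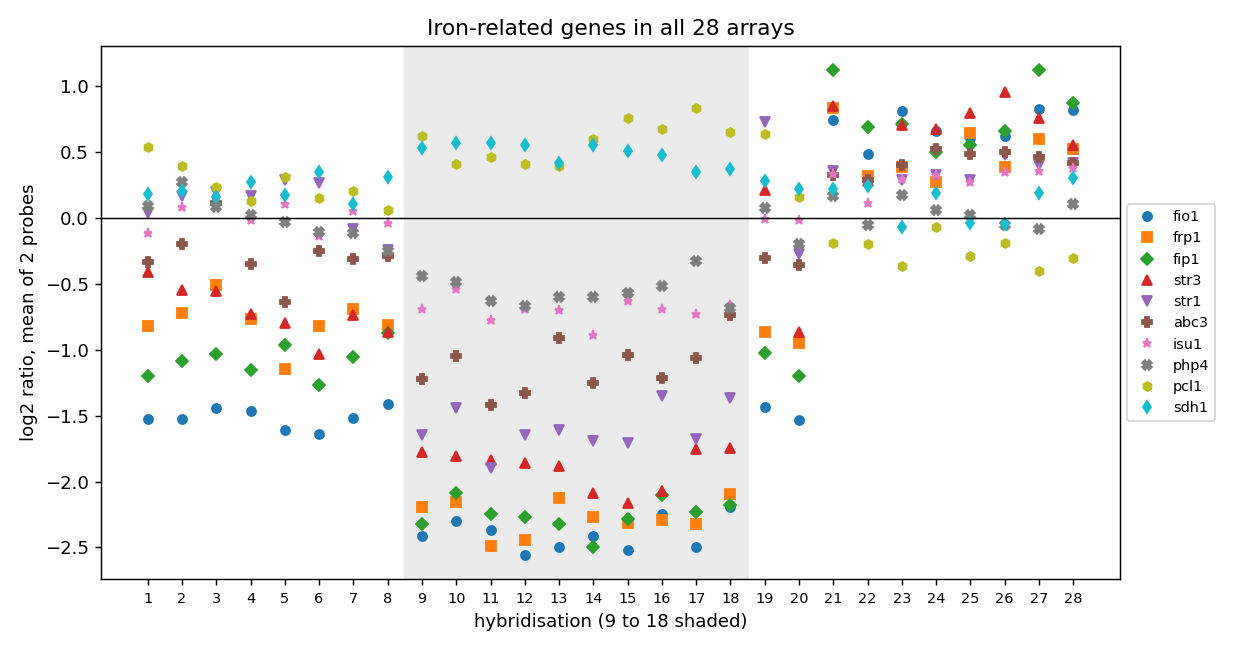
Log2 ratio (vertical axis, mean of 2 probes) of 10 iron-related genes in each of the 28 hybridisations (horizontal axis), with 9 to 18 shaded and 1 symbol per gene. In the shaded arrays fio1, frp1, fip1, str3 and str1 lie below -1.3 and pcl1 and sdh1 lie above 0.3, while in 21 to 28 the uptake genes fio1, frp1 and fip1 lie above 0.

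Other metals showed smaller departures. Of 5 copper genes, 1 was a member: ccc2, the pump that loads copper onto proteins such as the Fio1 ferroxidase, ran from -0.49 to -0.33 with a median of -0.38. The copper transporter genes ctr4, ctr5 and ctr6 averaged 0.25, 0.04 and -0.09, and the copper sensor gene cuf1 averaged -0.04. Of 7 zinc genes, 1 was above and 2 below. The metallothionein gene zym1 ran from 0.14 to 0.61 with a median of 0.36, all above the other 18, whose highest value was 0.02. The zinc importer gene zrt1 averaged -0.42 ± 0.09 and zhf1, which moves zinc into the endoplasmic reticulum, -0.37 ± 0.10 (both SD, n = 10). The remaining zinc genes were the repressor gene loz1 at -0.22, adh4 at 0.15, cis4 at -0.13 and fet4 at -0.10, none of them members.

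Fatty acid genes lay mostly below 0. Of 8 genes of fatty acid synthesis and use, 6 were members, all below 0, with a list median of -0.31 in the 10 arrays, 0.01 in hybridisations 1 to 8, 19 and 20 and -0.06 in 21 to 28. The desaturase gene ole1 ran from -0.83 to -0.35 with a median of -0.54. The acyl-CoA ligase genes lcf2 and lcf1 averaged -0.43 and -0.40. The acetyl-CoA carboxylase gene cut6 averaged -0.32, and the fatty acid synthase genes fas1 and fas2 averaged -0.29 and -0.26. The elongase genes elo1 (-0.09) and elo2 (-0.14) were not members.

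The per-array medians of this list, from -0.41 to -0.24, lay below those of the other 18 arrays, from -0.14 to 0.26. Ergosterol synthesis showed 4 of 21 members below 0 and 0 above, with a list median of -0.14. Within it, erg26 averaged -0.42 and erg25 -0.34. The HMG-CoA reductase gene hmg1 averaged -0.30 and erg1 -0.24 without meeting the rule.

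Stress genes were on the lower side as well. Of 21 genes of the Sty1 pathway and its targets, 9 were members below 0 and 1 above, beside 6.86% and 6.17% of all genes, with a list median of -0.16. The glycerol-3-phosphate dehydrogenase gene gpd1 ran from -1.0 to -0.39 with a median of -0.62. The trehalase gene ntp1 ran from -0.76 to -0.33 with a median of -0.50, and the trehalose-phosphate synthase gene tps1 from -0.73 to -0.26 with a median of -0.52. The transcription factor gene atf1 ran from -0.77 to -0.30 with a median of -0.39. For each of these 4 genes the 10 arrays overlapped the other 18, whose means were negative in hybridisations 1 to 8, 19 and 20 (-0.68, -0.25, -0.27 and -0.34) and positive in 21 to 28 (0.48, 0.39, 0.47 and 0.30). The single member above 0 was zym1.

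Among 16 cytosolic chaperone genes 4 were members, all below 0, and the list median of -0.10 was small. The disaggregase gene hsp104 ran from -1.05 to -0.71 with a median of -0.92. The Hsp40 gene psi1 ran from -1.05 to -0.67 with a median of -0.88. Both overlapped the other 18 arrays, where hsp104 ran from -1.33 to 1.31 and psi1 from -0.86 to 1.03. The Hsp90 cochaperone gene aha1 averaged -0.33, while cdc37, another Hsp90 cochaperone gene, averaged 0.39 and was not a member. Of 7 mitochondrial chaperone genes, hsp78 (-0.32) and mcp60 (-0.31) were below 0. Of 14 genes of superoxide and peroxide defence 3 were members below 0. Sulfiredoxin srx1 averaged -0.68 ± 0.08 and the peroxiredoxin-type gene pmp20 -0.48 ± 0.04 (both SD, n = 10). In srx1 the highest of the 10 arrays, -0.52, lay below the lowest of the other 18, -0.15.

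Other genes far below 0 were on none of the lists described so far. The biotin transporter gene vht1 ran from -1.10 to -0.53 with a median of -0.95 and its highest value in array 18. The flocculin-type cell-surface gene pfl3 ran from -1.04 to -0.76 with a median of -0.84, the only member among 6 pfl genes. The gene tps3, whose S. cerevisiae namesake codes for a subunit of trehalose synthase, ran from -1.15 to -0.52 with a median of -0.74. The genes SPAC56F8.15, SPAC3G6.05 and SPCC63.13, known here by systematic name, averaged -0.90, -0.85 and -0.81. Of the other 18 arrays, 17 lay below 0 for pfl3, 16 for SPAC56F8.15 and 13 for SPCC63.13. The counts were 10 for tps3, 9 for SPAC3G6.05 and 7 for vht1. Of all the genes just named, only SPAC3G6.05 lay entirely below the other 18 arrays, whose lowest value was -0.39.

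Above 0, no pathway reached the size seen for iron uptake. The 3 genes over 1 were mfs3, which codes for a membrane transporter of the major facilitator superfamily, hry1 and pdc201. In the 10 arrays mfs3 ran from 0.90 to 1.43 with a median of 1.22 and a mean of 1.24 ± 0.17 (SD, n = 10), a 2.35-fold ratio. Its lowest value there was just above the highest of the other 18, 0.88.

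The gene hry1 ran from 0.64 to 1.80 with a median of 1.16 and a mean of 1.13 ± 0.38 (SD, n = 10), while the other 18 arrays ran from -0.30 to 0.01. The pyruvate decarboxylase gene pdc201 ran from 0.72 to 1.41 with a median of 1.10 and a mean of 1.07 ± 0.22 (SD, n = 10), against -0.17 to 0.21 elsewhere. Neither gene overlapped the other arrays. The other pyruvate decarboxylase genes did not follow: pdc101 averaged 0.09, pdc102 -0.20 and pdc202 -0.10, and the alcohol dehydrogenase gene adh1 averaged -0.21.

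The uracil-regulated gene urg2 ran from 0.61 to 1.34 with a median of 0.91, its highest value in array 18. Its companion urg1 averaged 0.40, but its probes gave 0.15 and 0.66, and it missed the rule. Among 9 pyrimidine and uracil genes the uracil permease gene fur4 was the sole member below 0, at -0.23. Of 10 thiamine genes 2 were below 0, bsu1 at -0.27 and thi5 at -0.21. The largest mean of that list was 0.96 for the4, which ran from 0.31 to 1.16 and was not a member.

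Genes of ribosome assembly made up a broad group on the upper side. Of 71 such genes, 15 were members above 0 and 1 was below, with a list median of 0.20, beside 0.01 in hybridisations 1 to 8, 19 and 20 and 0.06 in 21 to 28. Without array 18 the count above was 27, beside 431 of all 4929 genes. Array 18 gave the lowest value for 28 of the 71, beside 19.4% of all genes. The rRNA processing gene rrp16 ran from 0.28 to 0.99 with a median of 0.66. The genes rrp36 and ebp2 ran from 0.34 to 0.95 and from 0.25 to 1.00, with medians of 0.65 and 0.63, and rrp8 averaged 0.57. The other 18 arrays reached 0.26 for rrp16, 0.21 for rrp36 and 0.55 for ebp2, so rrp16 and rrp36 did not overlap them, the first by a narrow margin, and ebp2 did. Of the assembly factors outside the list, kri1 averaged 0.69 and alb1 0.61. The genes SPAC144.01, SPCC24B10.18 and SPAC607.02C, known here by systematic name, averaged 0.63, 0.63 and 0.62. The gene rpc10, for a small subunit shared by the nuclear RNA polymerases, ran from 0.20 to 1.02 with a median of 0.61. Within the 29 polymerase subunit genes 3 were above 0 and 1 below: rpa34 averaged 0.48 and rpb1, for the largest subunit of polymerase II, -0.36.

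Ribosomal proteins were mixed. Among 82 large-subunit genes 11 were above 0 and 2 below, and among 44 small-subunit genes 8 were above and 2 below. Their list medians of 0.04 and 0.03 were near that of all genes. In hybridisations 1 to 8, 19 and 20 the same lists had medians of 0.33 and 0.34, and in 21 to 28 of 0.12 and 0.15. The gene rpl4102, for the very small protein L41, ran from 0.52 to 0.97 with a median of 0.82, above the other 18, which reached 0.32. Next by size were rpl29 at 0.46, and rpl42 and rpl39 at 0.45 and 0.44, the last pair not members. In the small subunit rps3002 averaged 0.48, rps3001 0.45, rps2401 0.40 and rps29 0.38. Many of these genes have near-identical copies, and how far the probes separate such copies is not given in the sources used here.

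The ubiquitin-ribosomal fusion gene ubi3 ran from 0.43 to 0.87 with a median of 0.71. The other ubiquitin genes averaged 0.40 for ubi1, 0.28 for ubi5, 0.26 for ubi2 and 0.06 for the polyubiquitin gene ubi4, and none was a member. Of 27 translation initiation factor genes 4 were above 0 and 0 below, namely tif212 (0.54), tif1102 (0.50), tif45 (0.48) and tif5 (0.33). Mitochondrial ribosomal protein genes had 3 of 37 above and 1 below, near the shares of all genes, and 5 above without array 18, with mrps28 at 0.42 and mrpl8 at 0.41. The genes mrpl28 (0.42) and mrpl40 (-0.41) missed the rule. The probes of mrpl40 gave 0.18 and -1.01, on opposite sides of 0.

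Carbon and amino acid metabolism split. Of 15 tricarboxylic acid cycle genes 3 were above 0 and 1 below. The flavoprotein subunit gene sdh1 of succinate dehydrogenase ran from 0.35 to 0.57 with a median of 0.52 and joined aco1 and sdh2. Among 12 glycolytic genes 2 were below 0, pgi1 at -0.31 and pfk1 at -0.18, and the list median was -0.14 against 0.10 and 0.25 in the other sets. Amino acid synthesis had 7 of 44 genes below 0 and 0 above. The glutamate dehydrogenase gene gdh1 ran from -0.65 to -0.23 with a median of -0.39, and arg11 and lys1 averaged -0.31 and -0.27. In the respiratory chain 4 of 32 genes were above 0 and 1 below. Histone genes had 0 of 10 members on either side, with a list median of -0.13 in the 10 arrays and 0.19 and 0.14 in the other sets.

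**Figure D4:**
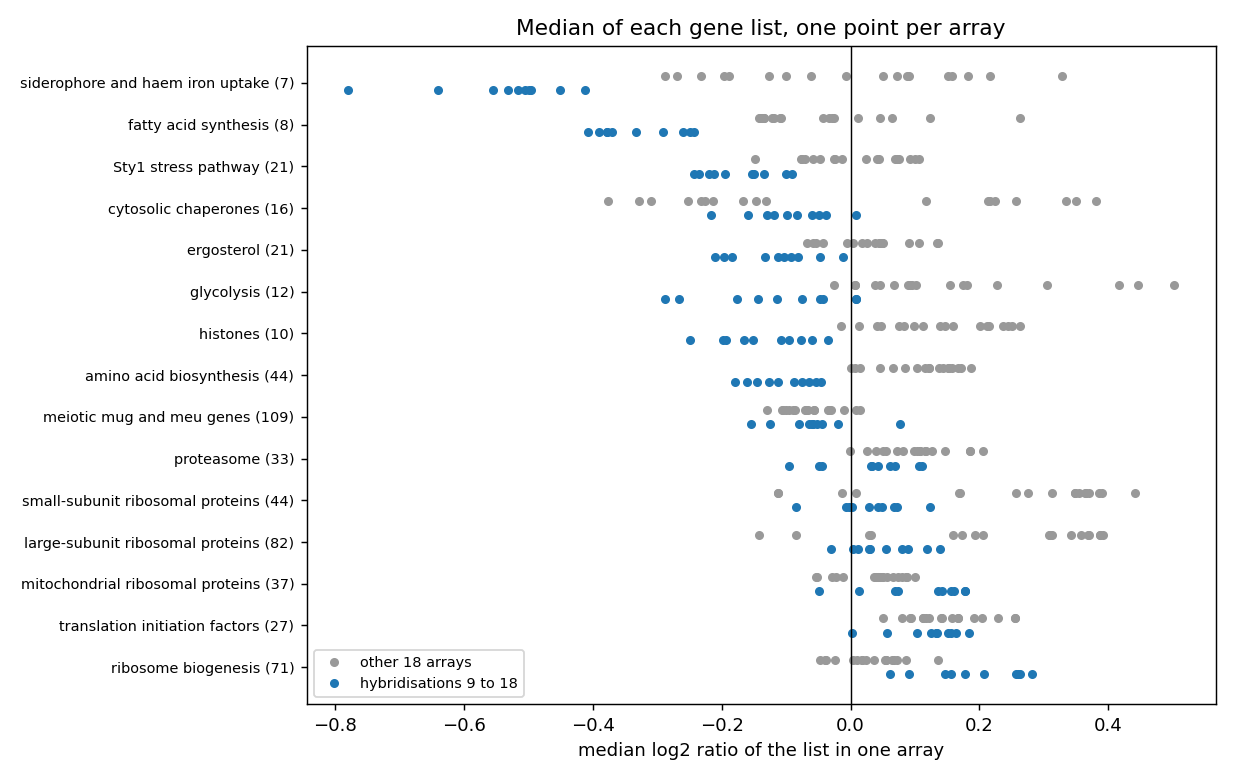
Median log2 ratio of each gene list in a single array (horizontal axis) for 15 lists (vertical axis, number of measured genes in brackets), with hybridisations 9 to 18 in blue and the other 18 arrays in grey. Siderophore and fatty acid lists lie left of all grey points, ribosome biogenesis lies mostly right of them, and the ribosomal protein lists lie between -0.08 and 0.14 where grey points reach 0.44.

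Several lists held few members, beside 6.17% above and 6.86% below for all genes. Whether their shares differ from these was not tested. The 33 proteasome genes had 0 above and 1 below, the 13 targets of the cell-cycle factor MBF had 0 and 0, and the 19 wtf genes had 0 and 0. The 109 meiotic mug and meu genes had 0 above and 4 below, with a list median of -0.07. Without array 18 the count below was 10, beside 448 of all 4929 genes. Array 18 gave the highest value for 42 of the 109, beside 21.2% of all genes. The list median in array 18 was 0.08, while the other 9 arrays ran from -0.15 to -0.02.

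Genes on clones near chromosome ends numbered 104, with 8 above and 4 below 0, near the shares of all genes. Without array 18 the count below was 9, beside 448 of all 4929 genes. Array 18 was highest for 42 of the 104, beside 21.2% of all genes. The iron genes frp1, str3 and abc3 and the gene hry1 lie on those clones.

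Cell identity could be read only as a difference between channels. The M-cell pheromone and receptor genes mfm1, mfm2, mfm3, mam1 and mam2 averaged -0.02, 0.02, -0.13, -0.14 and -0.10. The P-cell genes map1, map2 and map3 averaged -0.14, 0.03 and -0.08, and none of the 8 was a member. Their list median was 0.17 in array 18 and -0.17 to 0.02 in the other 9. The gene leu1, mutated in this strain, averaged -0.13 ± 0.07, and actin act1 averaged -0.08 ± 0.08 (both SD, n = 10), with its probes at -0.19 and 0.03. In pheromone signalling, 3 of 13 genes were members above 0 and 0 below: the kinase gene byr1 at 0.40, the adaptor gene ste4 at 0.33 and ras1 at 0.16. The median of that list was 0.01, and its gene means ran from -0.27 to 0.40.

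The other 18 arrays offered values that had no part in the choice of members. Limma's moderated test of each gene's mean against 0 over these 18 arrays called 1148 of 4929 genes above 0 (23.3%) and 903 below 0 (18.3%). With arrays centred on no value, as deposited, the split was 694 above and 1338 below. Of the 304 members above 0, 91 were called above (29.9%) and 27 below (8.88%), and 186 were not called. Of the 338 members below 0, 112 were called below (33.1%) and 40 above (11.8%), and 186 were not called. The median mean of the members above 0 was 0.02 in hybridisations 1 to 8, 19 and 20 and 0.05 in 21 to 28, and that of the members below 0 was -0.07 and -0.02.

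These calls treat the 18 arrays as independent. An alternative took the 2 sets as a random block, with a correlation shared by both. With only 2 sets, its p-values rest on little replication between sets and are approximate. At an estimated correlation of 0.404, 9 genes passed, which is 0.183% of all genes. Of these, 4 were members: ubi3 and rpl3202 above 0, and vma6, a subunit gene of the vacuolar proton pump, and abp2 below 0. All 4 lay on their side in each of the 28 arrays. For ubi3 the other 18 arrays ran from 0.18 to 0.54 (limma adjusted p = 1.78e-08, and 0.0219 with the block). For vma6 they ran from -1.05 to -0.07 (limma adjusted p = 6.1e-06, and 0.0219 with the block), though its probes in the 10 arrays averaged -0.82 and -0.18.

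The 3 iron genes farthest below 0 in the 10 arrays did not pass this test. The mean of fio1 over the other 18 arrays was -0.53 (limma adjusted p = 0.0843), that of fip1 -0.26 (0.325) and that of frp1 -0.23 (0.214), with 8 arrays above 0 and 10 below for each. By contrast, str1 averaged 0.23 there with 15 of 18 arrays above 0 (limma adjusted p = 0.00266, and 0.481 with the block), opposite to its side in the 10 arrays. Sulfiredoxin srx1 likewise averaged 0.37 with 16 of 18 above 0 (limma adjusted p = 0.0003, and 0.393 with the block).

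By list, the calls in the other 18 arrays stand beside 23.3% of all genes called above and 18.3% below. Of the ribosomal protein genes, 74 of 82 in the large subunit were called above 0 and 1 below, and 39 of 44 in the small subunit above and 0 below, on the side that held more of their members in the 10 arrays. Ribosome assembly genes had 28 of 71 called above and 11 below. Among amino acid synthesis genes 26 of 44 were called above and 2 below, and among glycolytic genes 9 of 12 above and 0 below, whereas the members of both lists in the 10 arrays lay below 0. Histone genes had 8 of 10 called above and 0 below. The reductive iron route had 1 of 4 called below, frp2, and the fatty acid list 2 of 8 above and 2 below, shares near those of all genes. The mug and meu genes had 9 of 109 called above and 45 below. With the block, 3 large-subunit ribosomal protein genes and 2 ubiquitin genes passed.

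In 11 members above 0 and 11 below, all of the other 18 arrays lay on the same side by the mean of the probes. In 3 members all 18 lay on the opposite side, of which tyw3 and SPAC25B8.12C were named after their values were seen. The same counts over all genes are not given here, so these counts show nothing particular to the members. The tRNA modification gene tyw3 averaged 0.39 in the 10 arrays and -0.13 elsewhere, pic1 0.23 and -0.28, and SPAC25B8.12C -0.37 and 0.51.

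Complete separation from the other 18 arrays was uncommon. In 47 genes (0.954%) the lowest of the 10 arrays lay above the highest of the other 18, and 34 of the 47 were members. In 51 genes (1.03%) the highest of the 10 lay below the lowest of the other 18, and 44 were members. The widest gaps below were those of str1, frp1, fip1, str3, fio1, mmt1, isu1 and srx1, from 1.08 for str1 to 0.36 for srx1. Those above belonged to hry1, pdc201, SPCC338.18, rpl4102, bag101, pic1, rrp36 and zym1, from 0.62 for hry1 to 0.12 for zym1. The gene bag101, at 0.30, was not a member.

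The spread among the 10 arrays comes from the same values that chose the arrays and the members, so the counts that follow describe these arrays and support nothing about the members. The probe F test found 730 of 4929 genes (14.8%) to vary among the 10 arrays, and 422 without array 18, of which 400 were shared. Of the members, 100 of 304 above 0 and 24 of 338 below 0 were among them. The median SD over the 10 arrays was 0.131 for members above, 0.0919 for members below and 0.112 for all genes. Ribosome assembly genes varied in 23 of 71 cases. In kri1, for example, the arrays ran from 0.27 to 0.99 (probe F test adjusted p = 0.00376), with array 15 at 0.27. Over the 10 arrays the SD was 0.12 to 0.13 for fio1, fip1 and frp1, 0.15 for str3, 0.17 for str1 and 0.20 for abc3, above the median SD of all genes.

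The 10 genes of widest spread were SPAC27F1.10, mug73, SPAC1A6.11, atf21, mde3, cym1, SPBC855.01c, rsv2, lon1 and cwf21, none of them a member. SPAC27F1.10 ran from -1.40 to 0.04 with a median of -0.28 (probe F test adjusted p = 7.17e-05, and 0.000395 without array 18). SPAC1A6.11 ran from -1.23 to -0.05 with a median of -0.28 (adjusted p = 0.00711, and 0.0112 without array 18). In mug73, atf21, mde3, SPBC855.01c and rsv2 array 18 was the highest by far, and in lon1 and cym1 it was the lowest. Without array 18, mde3 (adjusted p = 0.014), lon1 (0.0111) and cym1 (0.00322) still passed, and mug73 (0.285), atf21 (0.236), SPBC855.01c (0.147) and rsv2 (0.238) did not.

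The products of atf21 and mde3 are a transcription factor and a kinase of meiosis, and lon1 codes for a mitochondrial protease. Over all 730 genes, array 18 was the highest of the 10 in 157 and the lowest in 203. Beside these stand 21.2% and 19.4% of all genes.

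**Figure D5:**
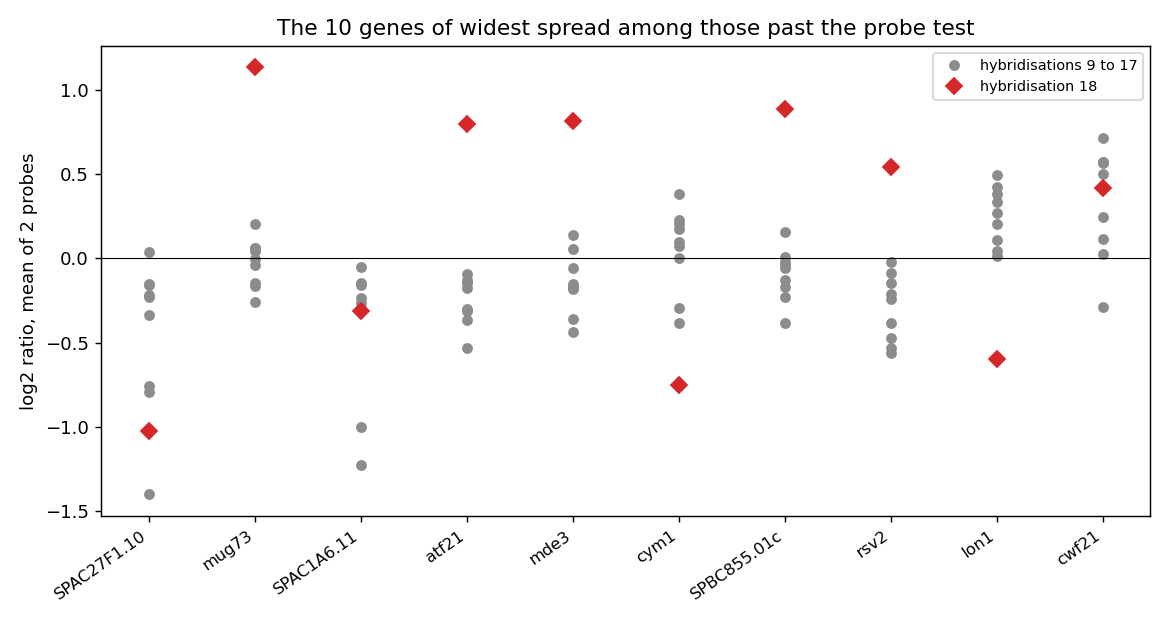
Log2 ratio (vertical axis, mean of 2 probes) of the 10 genes of widest spread among those past the probe F test (horizontal axis), with hybridisations 9 to 17 as grey points and hybridisation 18 as a red diamond. Array 18 stands above the other 9 arrays in mug73, atf21, mde3, SPBC855.01c and rsv2 and below them in cym1 and lon1.

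Gene length and order did not enter the rule. Genes above 0 had a median annotated length of 1261 bases over 299 genes, and genes below 0 of 2166.5 bases over 326 genes. The median over all 4791 genes with a length was 1811 bases. Across genes, Spearman's rho between the mean of the 10 arrays and gene length was -0.194, and in single arrays it ran from -0.207 to -0.136. Genes are not independent replicates, and any part of length in the ratios was not tested.

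Of 606 chromosomal neighbours of genes below 0, 9.90% were below 0 too, beside 6.86% of all genes. Of 570 neighbours of genes above 0, 3.86% were above 0, beside 6.17% of all genes. Whether these shares differ was not tested. Positions were not taken from the files, so only the order of genes in RefSeq was used.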

How the data were processed

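Per the labels, the authors deposited the median log2 ratio between channels for each probe. Per the labels, a GenePix 4000A scanner and GenePix Pro 4.0 were used, background was corrected, and flagged spots and spots with a foreground over background under 2 were removed. The deposited table has 0 missing values. It holds 9858 probes, 2 for each of 4929 identifiers; 9632 probes have 1 gene in the platform annotation, 44 several and 182 none. Of 4816 named identifiers, 4791 were found in RefSeq (ASM294v3), used for names, order and length. No source used here gives the genome build, the numerator channel, the dye orientation or the probe sequences. Spot intensities were not used here.

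The median of each array was subtracted, and a gene's 2 probes were then averaged. Members, gene lists and tests were chosen with earlier results of these data known. Values in the 10 arrays were described without a test. Gene means over the other 18 arrays were compared with 0 by limma's two-sided test with a robust prior (limma 3.58.1, R 4.3.3). Variation among the 10 arrays was tested with an F ratio of the between-array mean square over the probe disagreement, moderated with limma's squeezeVar. P-values were adjusted by Benjamini-Hochberg over 4929 genes, at 0.05. Scripts were tested on simulated data.

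Genes were named by rule: the 15 largest means on each side, up to 4 members of each list (all members of lists of 12 or fewer), the 10 of widest spread, the 8 widest gaps on each side, the 3 nearest the rule's edge on each side, act1 and leu1. Named outside the rule, after their values were seen, were fep1, rpl3202, abp2, tyw3 and SPAC25B8.12C. A few listed symbols were updated through RefSeq. Alternatives were other centrings, each probe alone, array scaling, sets as a block, no moderation and each array left out.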

Additional observations from a re-analysis of the deposited data

Results flagged for a closer look

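In 25 of 323 values tested over the 10 arrays (278 genes and 45 list medians), 1 array stood apart from the others by more than Dixon's critical value. Chance flags about 1 in 20 groups. That rate does not hold for the 10 genes picked for the widest spread among these same arrays, which gave 6 of the 25, each with array 18 apart: mug73 at 1.13, atf21 at 0.80, mde3 at 0.81, SPBC855.01c at 0.88, rsv2 at 0.54 and lon1 at -0.60. The rest of the 323 values gave 19 of the 25 flags, and whether that exceeds the chance rate was not tested. Among these 19, array 18 stood apart for pdc102 (0.27), fhn1 (-0.16), isp5 (0.63), mam2 (0.35), mfm1 (0.59) and ubi2 (-0.041).

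Array 11 stood apart in 7 genes. These were sib1 (-0.78), mdj1 (0.072), hxk2 (-0.094), gpd3 (-0.62), cdc22 (0.020), spc3 (0.16) and tef5 (0.30). Array 14 stood apart for pgi1 (-0.66), tef103 (-0.31), mug72 (-0.70) and SPAC25B8.12C (-0.78), and array 13 for pdc202 (-0.73) and the4 (0.31). Array 18 also had the lowest correlation between the 2 probes of a gene, at 0.48. What sets these values apart was not tested.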

How the results depend on the processing

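No paired analysis was possible because all arrays form a single group. The counts of members (304 above, 338 below) depended on the use of the probes: the average of the 2 probes gave 788 and 834, probe 1 alone 597 and 683, probe 2 alone 599 and 655, and a distance of at least 0.1 from 0 gave 95 and 107. No centring gave 290 and 364, centring on the mean 291 and 370, and scaling cannot change them. Leaving out each array in turn gave 307 to 431 above and 344 to 448 below. In the other 18 arrays (1148 above, 903 below), no centring gave 694 and 1338, scaling 1061 and 812, and the sets as a random block 6 and 3. The genes that varied among the 10 arrays (730) were 475 without moderation and 422 to 764 with each array left out, with 463 without array 15 and 422 without array 18. The means of 278 genes, those named by the rule or outside it, kept within 1 SD with each array left out and without centring. By single probe, 21 of the 278 moved by more, among them str3, frp2, vma6, lcf2 and act1, the last to -0.19 and 0.03. With array 18 left out, an alternative chosen after seeing the data, large-subunit ribosomal protein genes above 0 were 19 in place of 11, and nitrogen-starvation genes below 0 were 6 in place of 2. Over all genes the same step gave 431 above in place of 304 and 448 below in place of 338. Signal over background could not be used, since no intensities were analysed here, and the number of arrays limits precision.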
